A study of Mus musculus with 6 samples.

Results

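The genes described here are a group of brakes on G protein signalling: the beta-arrestins Arrb1 and Arrb2, the regulators of G protein signalling Rgs2, Rgs4, Rgs7 and Rgs16, and the receptor kinases Grk5 and Grk6. All probe sets whose platform gene symbol was exactly 1 of these 8 names were taken, which gave 19 probe sets of the 45037 on the array that are not controls. The genes were picked with the differences between the groups already known, so their values are given as a description, without a test of the group.

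Transcripts were measured on Affymetrix mouse expression arrays in pancreatic islets of male C57Bl6 mice aged 12 weeks. The controls were 3 samples from mice labelled Flox. They were compared with 3 samples labelled Tead1KO, from mice with a knockout of the transcription factor Tead1 in beta cells only. Each sample was read by 1 array. No Cre driver is named in the labels of either group, and they do not tie arrays to single animals, so the spread within a group may be technical. Islets are a mixture of cell types, and in such whole-tissue RNA fewer cells of a type and less RNA per cell cannot be told apart.

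When a hormone or neurotransmitter occupies a G protein coupled receptor, the receptor exchanges GTP for GDP on the alpha subunit of a G protein, which then acts on adenylyl cyclase or phospholipase C. Receptor kinases phosphorylate the occupied receptor, and beta-arrestins bind the phosphorylated receptor, uncouple it from the G protein and lead it to clathrin-coated pits. RGS proteins act one step later, by speeding up GTP hydrolysis on the alpha subunit. In beta cells these steps set how long incretin, muscarinic and adrenergic inputs shape insulin release.

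The brakes did not differ in 1 direction. Arrb1 was higher in Tead1KO islets by 2.12 on the log2 scale, which is 4.34-fold. Rgs2 was higher by 1.17 at its brightest probe set, which is 2.25-fold. Grk5 was lower, with a difference of -1.57 at its brightest probe set, which is 2.97-fold. The brightest probe sets of the other 5 genes differed by between -0.65 and -0.25.

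Over all 45037 probe sets, 0.180% passed an adjusted p under 0.05 (limma with Benjamini-Hochberg adjustment), 59 of them (0.131%) higher and 22 (0.0488%) lower in Tead1KO. Of the 19 member probe sets, 2 passed, both higher: that of Arrb1 and the brightest of Rgs2. In 10 of the 19 the arrays of the groups did not overlap, 5 higher and 5 lower in Tead1KO, beside 10.5% of all probe sets. Since the genes were chosen on this same comparison, nothing is read from these shares.

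**Figure D1:**
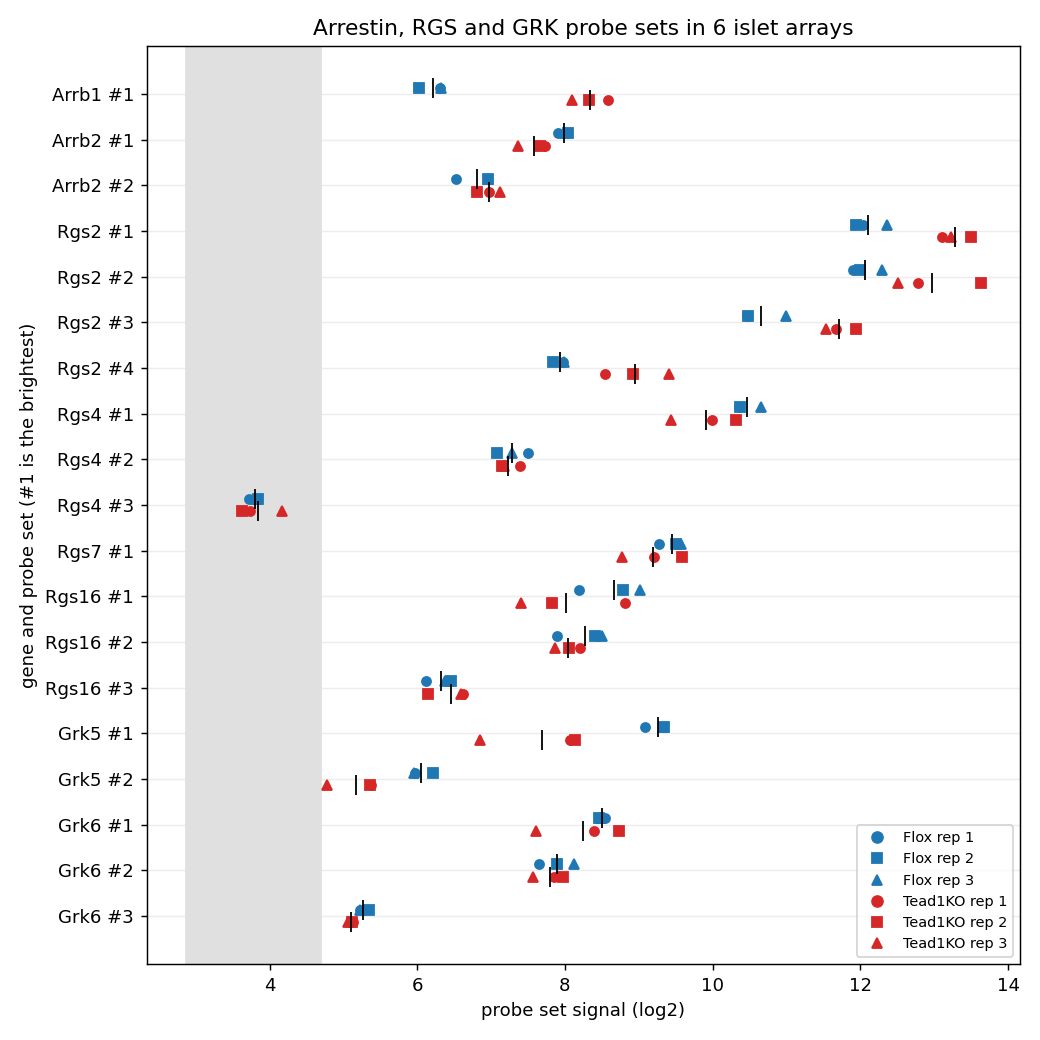
Signal of each member probe set (log2, x axis), 1 row per probe set and numbered from the brightest of a gene. Each array is a point, in blue for Flox and in red for Tead1KO, with a symbol for its replicate; black ticks mark the means, and grey shading covers 2.87 to 4.70, where bacterial controls that were not spiked in were read. The groups are apart for Arrb1, for all 4 probe sets of Rgs2 and for both of Grk5. They are also apart, by small gaps, at the brightest probe sets of Arrb2 and Rgs4 and the dimmest of Grk6. In the shading lies 1 dim probe set of Rgs4.

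The arrays were not of equal quality, which bears on several members. The array of Tead1KO replicate 3 stood apart. Its mean correlation with the other arrays across probe sets was 0.969, against 0.984 to 0.986 for the others, and its interquartile range was 2.65, against 2.99 to 3.32. Its spiked hybridization controls read 13.23, against 10.60 to 12.09. It was the lowest of the 6 arrays in 10 of the 19 member probe sets and in 40.9% of all probe sets above background. Differences are therefore also given without it for the brightest probe set of each member. For genes named from the lists and markers below, this is done where its omission moved the brightest probe set's value by over 1.5 times. The median of each list of related genes below, and of the beta cell markers, is given in both ways, an alternative added after the data were seen. The targeted gene did not pass the test in whole islets. The brighter Tead1 probe set read 7.22, 6.99 and 7.40 in Flox and 6.72, 7.49 and 5.95 in Tead1KO (limma adjusted p = 0.871). The dimmer one differed by -0.21 (limma adjusted p = 0.891). It read 6.14, 5.33 and 5.11 in Flox and 5.58, 5.41 and 4.98 in Tead1KO, so replicate 3 was again the lowest. Where these probe sets lie relative to the deleted part of Tead1 is unknown here, so they do not check the labels.

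Promoter sequence is shown for Rgs2 and Grk5, the genes with several probe sets of which none overlapped between groups, to give the letters upstream of a gene that was higher and of one that was lower. Sequences are from RefSeq (GRCm38.p6), which matched 6 of the 8 genes in 8 windows, and each runs 5′ to 3′ over the 250 bases before the transcript's start. Arrb1 and Arrb2 were not matched. The Rgs2 window is chr1:144004150-144004399 on the minus strand and the Grk5 window is chr19:60889499-60889748 on the plus strand. Capitals mark TGACG or its reverse complement CGTCA, a half-site of the cAMP response element.
Rgs2: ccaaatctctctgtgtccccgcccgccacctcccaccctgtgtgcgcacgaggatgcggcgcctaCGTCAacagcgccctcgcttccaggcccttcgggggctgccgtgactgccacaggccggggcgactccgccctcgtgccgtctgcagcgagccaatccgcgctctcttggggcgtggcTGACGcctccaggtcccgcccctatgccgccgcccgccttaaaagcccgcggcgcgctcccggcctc
Grk5: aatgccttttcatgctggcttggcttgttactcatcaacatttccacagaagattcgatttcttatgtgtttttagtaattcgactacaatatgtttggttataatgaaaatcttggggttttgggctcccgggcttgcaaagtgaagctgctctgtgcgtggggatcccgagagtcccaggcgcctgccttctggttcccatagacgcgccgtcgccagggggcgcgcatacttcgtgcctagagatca

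The Rgs2 window held the half-site at 185 to 181 and at 67 to 63 bases before the start, in opposite orientations. The Grk5 window held none. Of the other genes with a window, Rgs4 held 2 half-sites and Rgs7, Rgs16 and Grk6 none. On either strand, 17.8% of all 32851 windows of this length held TGACG. The full element TGACGTCA, which contains the half-site, was in 0 of the 8 windows and in 1.55% of all. The TEAD motif GGAATG, searched on both strands as GGAATG and CATTCC, was in 0 of the 8 windows and in 12.6% of all. These are matches of letters in a short window and say nothing of binding. The windows differed in base composition, with a GC content of 72.4% for Rgs2 and 49.6% for Grk5, where the median of all windows was 52.4%. All 4 RGS genes lie on chromosome 1, in separate places.

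Among the arrestins, the large difference was that of Arrb1, and whether it exceeded that of Arrb2 was not tested. Arrb1 encodes beta-arrestin 1, an adaptor that also scaffolds kinase signalling downstream of incretin receptors. Its only probe set read 6.30, 6.03 and 6.32 in Flox and 8.58, 8.33 and 8.10 in Tead1KO. Every Tead1KO array lay well above every Flox array. The means were 6.22 ± 0.16 and 8.33 ± 0.24 (SD, n = 3 each), a difference of 2.12 (SE 0.19). It was 2.24 without Tead1KO replicate 3. The call passed under all 9 other processing choices, but ended when any 1 Flox array or Tead1KO replicate 1 was left out, with the difference between 1.997 and 2.237.

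Arrb2 encodes beta-arrestin 2, the close relative that binds many of the same receptors. Its brighter probe set, of a type that can match several transcripts, read 7.90, 8.04 and 8.004 in Flox and 7.73, 7.66 and 7.36 in Tead1KO. The groups did not overlap, but the gap was small: the difference was -0.40 (SE 0.17), and -0.29 without Tead1KO replicate 3. The dimmer probe set read 6.52, 6.95 and 6.95 in Flox and 6.97, 6.80 and 7.13 in Tead1KO. There the groups overlapped and the difference was 0.16, so the probe sets of Arrb2 disagreed in sign.

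Among the RGS proteins, Rgs2 was the member that was higher, and all 4 of its probe sets showed it. Rgs2 preferentially restrains the Gq class and is an early response gene in many cells. The brightest probe set read 12.03, 11.94 and 12.36 in Flox and 13.11, 13.50 and 13.23 in Tead1KO. The lowest Tead1KO array was above the highest Flox array, and the means were 12.11 ± 0.22 and 13.28 ± 0.20 (SD, n = 3 each, SE of the difference 0.16). This probe set can match several transcripts by its type, but the other 3 are of the specific type.

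The second Rgs2 probe set read 11.90, 11.99 and 12.30 in Flox and 12.78, 13.63 and 12.51 in Tead1KO. The third read 10.47, 10.48 and 10.998 in Flox and 11.67, 11.94 and 11.54 in Tead1KO. The dimmest read 7.97, 7.84 and 7.98 in Flox and 8.55, 8.92 and 9.40 in Tead1KO. None of these overlapped, and the differences were 0.91, 1.07 and 1.02. Without Tead1KO replicate 3 the 4 differences were 1.19, 1.14, 1.16 and 0.80, of which 3 were larger than with all arrays. Without Tead1KO replicate 2 the second probe set differed by 0.58. Of the 4, 1 passed over all probe sets. That call ended with median centring, without a variance trend, with a robust prior, and when any Flox array or Tead1KO replicate 1 was left out, and 3 of the 4 passed, as did 0.595% of all probe sets, when the hybridization controls were a covariate.

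Rgs4 restrains both Gi and Gq and limits muscarinic stimulation of insulin release. Its brightest probe set read 10.36, 10.37 and 10.66 in Flox and 9.99, 10.32 and 9.43 in Tead1KO. The groups were separated only by the small step between 10.32 and 10.36. The difference was -0.55 (SE 0.24), and -0.31 without Tead1KO replicate 3. The second probe set differed by -0.05 with overlapping arrays, and the dimmest was within background.

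Rgs16, an inducible relative of Rgs4, varied widely within both groups. Its brightest probe set read 8.19, 8.79 and 9.01 in Flox and 8.81, 7.82 and 7.40 in Tead1KO. Tead1KO replicate 1 lay among the Flox arrays and the other 2 below them. The difference of -0.65 (SE 0.37) was -0.35 without Tead1KO replicate 3 and -1.05 without Tead1KO replicate 1. Its further probe sets differed by -0.23 and 0.13, both with overlapping arrays.

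Rgs7 belongs to a subfamily that acts on Gi and Go and is stable only when bound to Gnb5. Its single probe set read 9.27, 9.50 and 9.57 in Flox and 9.21, 9.58 and 8.78 in Tead1KO. The groups overlapped, and the difference of -0.26 (SE 0.22) was -0.05 without Tead1KO replicate 3 and -0.45 without Tead1KO replicate 2. Of 5 genes whose products partner with this subfamily 0 passed and 1, Rgs7bp, had an unadjusted p under 0.05. The obligate partner Gnb5 differed by 0.16 (limma adjusted p = 0.878), the membrane anchor Rgs7bp by -0.40 (limma adjusted p = 0.871) and Rgs9bp by -0.12 (limma adjusted p = 0.885), or -0.016 without Tead1KO replicate 3. The median of these 5 genes was -0.04 (-0.016 without that array).

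Of the receptor kinases, Grk5 was lower. Grk5 phosphorylates occupied receptors at the plasma membrane and can also act in the nucleus. Its brighter probe set read 9.09, 9.35 and 9.33 in Flox and 8.06, 8.14 and 6.85 in Tead1KO. All Tead1KO arrays lay below all Flox arrays, with replicate 3 far below the other 2. The means were 9.25 ± 0.14 and 7.69 ± 0.72 (SD, n = 3 each), a difference of -1.57 (SE 0.33) that was not past the threshold over all probe sets.

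Without Tead1KO replicate 3 the Grk5 difference was smaller in size, -1.15 (SE 0.15), and then passed, as 0.413% of all probe sets did in that fit. With the hybridization controls as a covariate it was also -1.15, and it did not pass. The dimmer Grk5 probe set read 5.97, 6.22 and 5.96 in Flox and 5.37, 5.36 and 4.78 in Tead1KO. It did not overlap between groups either, and its difference was -0.88, or -0.68 without Tead1KO replicate 3.

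Grk6, a membrane-bound kinase of the same subfamily as Grk5, had small differences, and the contrast between both kinases was not tested. Its brightest probe set read 8.54, 8.47 and 8.49 in Flox and 8.39, 8.73 and 7.61 in Tead1KO. Only replicate 3 was far from the Flox arrays, and the difference changed from -0.25 (SE 0.28) to 0.06 without it, and to -0.50 without Tead1KO replicate 2. The second probe set differed by -0.09 with overlapping arrays. The dimmest, at 5.26 ± 0.07 in Flox and 5.10 ± 0.03 in Tead1KO (SD, n = 3 each), did not overlap but differed by only -0.16.

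**Figure D2:**
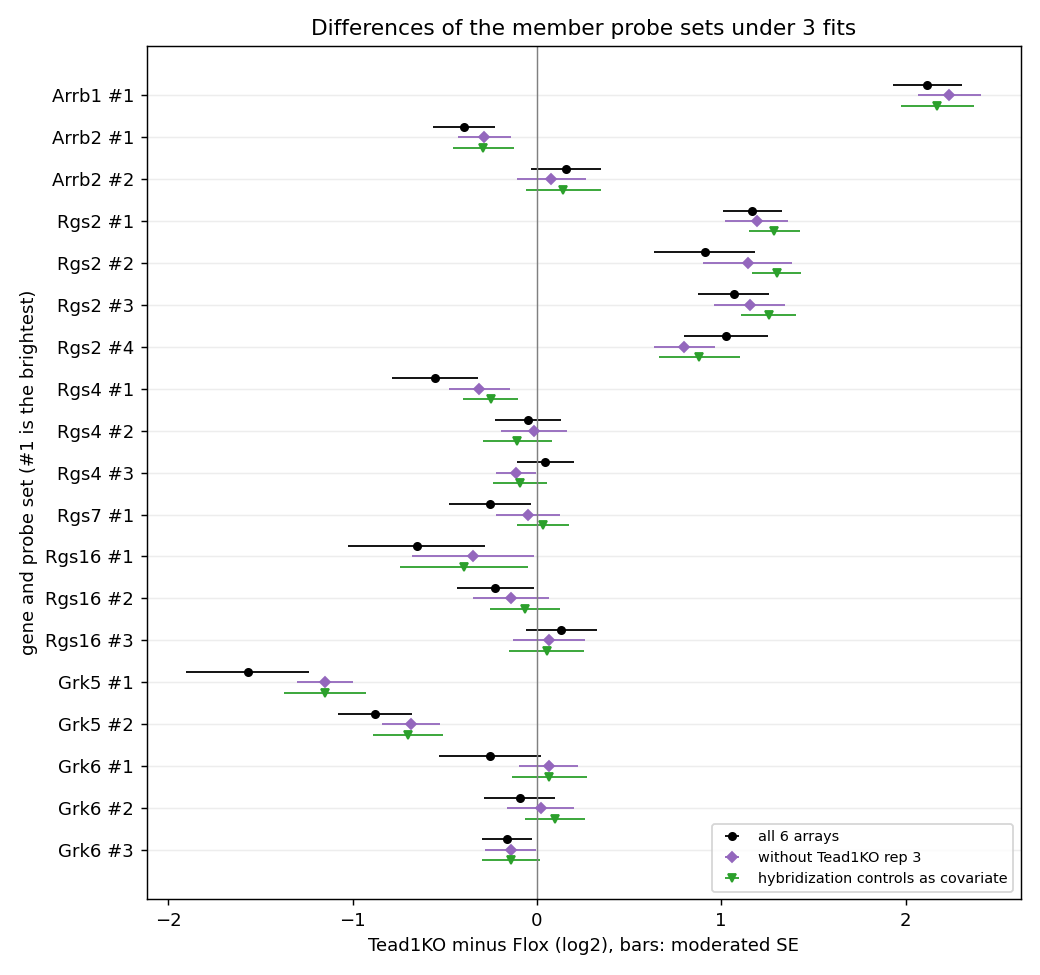
Tead1KO minus Flox (log2, x axis) for each member probe set, with the moderated standard error as bars; black circles use all 6 arrays, purple diamonds leave out Tead1KO replicate 3 and green triangles add the hybridization controls as a covariate. Arrb1, Rgs2 and Grk5 stay away from 0 in each fit, while the brightest Grk6 probe set crosses 0, from -0.25 to 0.06 without replicate 3.

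**Figure D3:**
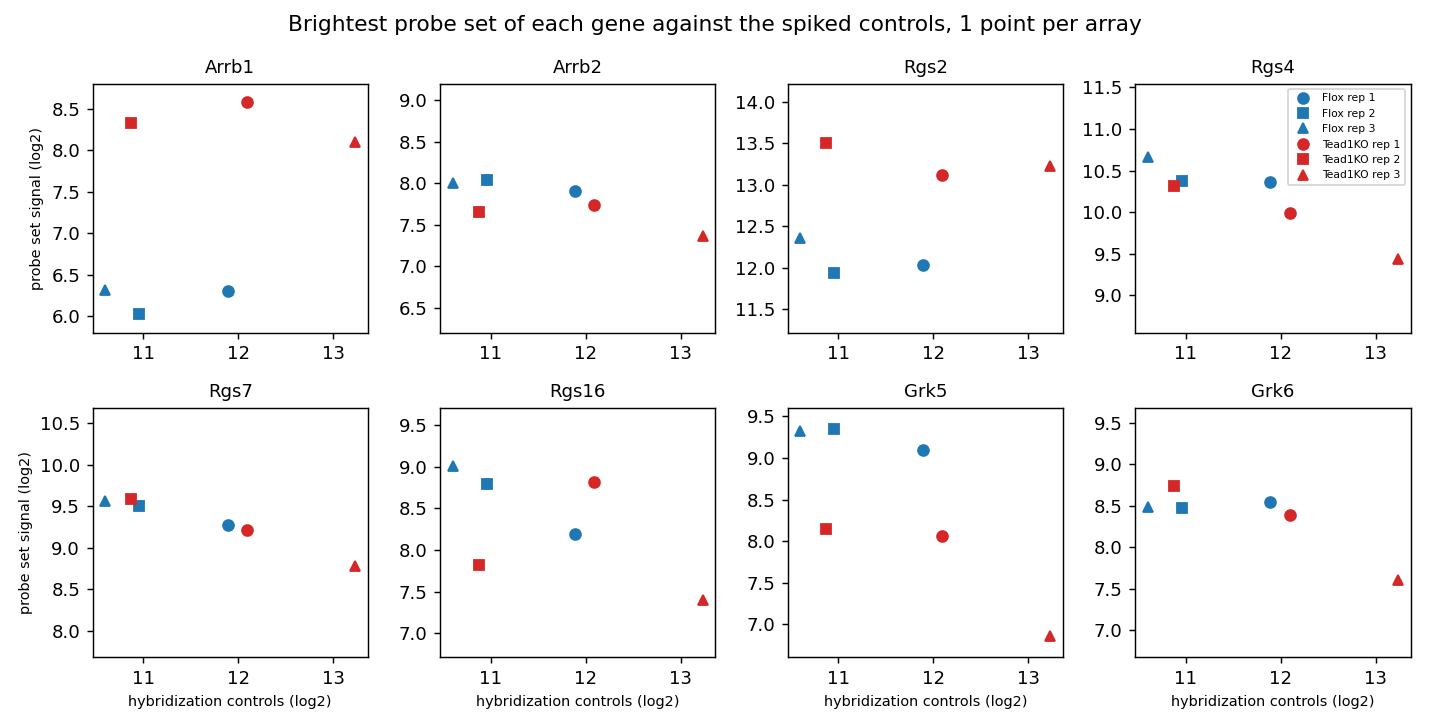
Signal of the brightest probe set of each gene (log2, y axis, the same span of 3 units in every panel) against the mean of the spiked hybridization controls (log2, x axis), 1 point per array, blue Flox and red Tead1KO with the symbol by replicate. The array with the highest controls, Tead1KO replicate 3 at 13.23, is the lowest point for all genes but Arrb1 and Rgs2, which separate by group at low and high control signal.

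The rest of the desensitization machinery was looked at in 9 lists of related genes, with 94 of 99 named genes measured. In the same fit 0 of the 94 genes had a probe set that passed (limma, adjusted p under 0.05), beside 0.352% of all genes. At an unadjusted p under 0.05 there were 14, 3 higher and 11 lower, which is 14.9%, where 7.23% of all genes reached it at their brightest probe set. The median difference of the 94 genes was -0.07, beside -0.0074 over all genes, and -0.05 beside 0.0041 without Tead1KO replicate 3. The arrays did not overlap in 20 of the 94, 5 higher and 15 lower, which is 21.3%, beside 13.1% of all genes. In this and the next paragraphs differences are at the brightest probe set of a gene where no other is named.

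The other RGS proteins were 15 measured genes with a median difference of 0.04 (0.03 without Tead1KO replicate 3). Of these 0 passed, and 2 had an unadjusted p under 0.05, both lower. Rgs3, which acts on Gi and Gq, differed by -0.46 (limma adjusted p = 0.833), and by -0.14, 0.35 and -0.50 at its other probe sets. Rgs5, abundant in pericytes, the contractile cells around small vessels, differed by -0.62 (limma adjusted p = 0.871) with overlapping arrays, and by -0.37 without Tead1KO replicate 3. Its other probe sets differed by -0.24, -0.58 and -0.18. Rgs17 differed by -0.38 (limma adjusted p = 0.871), and by -0.68 at its second probe set (limma adjusted p = 0.557). Of the 3 other receptor kinases measured, 0 passed, and the median was -0.04 (-0.20 without Tead1KO replicate 3). Grk3, a kinase recruited to the membrane by G beta-gamma, differed by -0.49 (limma adjusted p = 0.871). Its second probe set differed by -0.85 (limma adjusted p = 0.322) and its dimmest by -0.30. The visual kinase Grk1 differed by -0.04 and Grk4 by -0.03, or by -0.10 and -0.20 without Tead1KO replicate 3. Grk2 was not analysed here.

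Of the visual arrestins, Sag was within background and Arr3 differed by 0.19 (limma adjusted p = 0.871). The dimmer Arr3 probe sets, both within background, differed by -0.12 and 0.23. Of the 6 alpha-arrestins, which share the arrestin fold and mostly adapt ubiquitin ligases, 0 passed and 1 had an unadjusted p under 0.05. That was Txnip, a glucose-induced inhibitor of thioredoxin, which read 12.69 in Flox and 13.45 in Tead1KO, a difference of 0.77 (limma adjusted p = 0.507). Its second probe set differed by 1.11 (limma adjusted p = 0.294). The list's median was 0.20 (0.25 without Tead1KO replicate 3). The median of the pair of visual arrestins was 0.13 and 0.06.

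Among the G protein subunits, 2 of 15 measured alpha subunits and 6 of 15 beta and gamma subunits lay above 0, or 4 and 7 without Tead1KO replicate 3. Of all genes 51.1% lay below 0, and 49.0% without that array. The beta and gamma subunits were near that share. Of the alpha subunits 0 passed, 2 had an unadjusted p under 0.05 and the median was -0.14 (-0.09 without Tead1KO replicate 3). Gnat2, the cone transducin subunit, differed by -0.73 (limma adjusted p = 0.259) and Gna12 by 0.60 (limma adjusted p = 0.430). The further Gna12 probe sets differed by 0.09, 0.26, 0.23 and -0.08. The Gi subunit Gnai2 differed by -0.67 (limma adjusted p = 0.871) with overlapping arrays, and by -0.31 without Tead1KO replicate 3. At its second probe set the difference was -0.71 (limma adjusted p = 0.773), and there the arrays did not overlap. Of the beta and gamma subunits 0 passed, 3 had an unadjusted p under 0.05 and the median was -0.09 (-0.016 without that array). These were the gamma subunits Gng4 (-0.41), Gng12 (-0.48) and Gng2 (-0.59), with limma adjusted p = 0.587, 0.772 and 0.826. Their further probe sets differed by -0.82 and -0.41 for Gng4, by -0.95 for Gng12, and by -0.27, 0.35 and 0.12 for Gng2.

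Among 17 other G protein regulators, 0 passed, 2 had an unadjusted p under 0.05 and the median was -0.05 (-0.10 without Tead1KO replicate 3). Ric8b, a chaperone and exchange factor for Gs-type alpha subunits, differed by 1.02 (limma adjusted p = 0.226) and by 0.67 at its second probe set. It was the gene of these lists that passed in other fits: without Tead1KO replicate 3 (1.20, limma adjusted p = 0.041), after quantile normalization (1.15, limma adjusted p = 0.0329) and with the covariate of hybridization controls (1.17, limma adjusted p = 0.0237). In these fits 0.413%, 0.318% and 0.595% of all probe sets passed. Gpsm1, which holds Gi subunits in their GDP form, differed by -0.41 (limma adjusted p = 0.871), and by -0.38 and 0.08 at its other probe sets.

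Of 16 genes of receptor internalization, the step to which beta-arrestins deliver receptors, 0 passed, and 2 had an unadjusted p under 0.05. Above 0 lay 1 of the 16 and the median was -0.28, but without Tead1KO replicate 3 these were 4 of 16 and -0.06. Ap2b1, the adaptor subunit that binds beta-arrestins, differed by -0.37 (limma adjusted p = 0.871), and by 0.05 and -0.13 at its dimmer probe sets. Dnm3, a dynamin, differed by -0.40 and Ap2s1, the small adaptor subunit, by -0.52, each with limma adjusted p = 0.871. The dimmer Dnm3 probe sets, all within background, differed by -0.04, 0.01, 0.17 and -0.006.

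**Figure D4:**
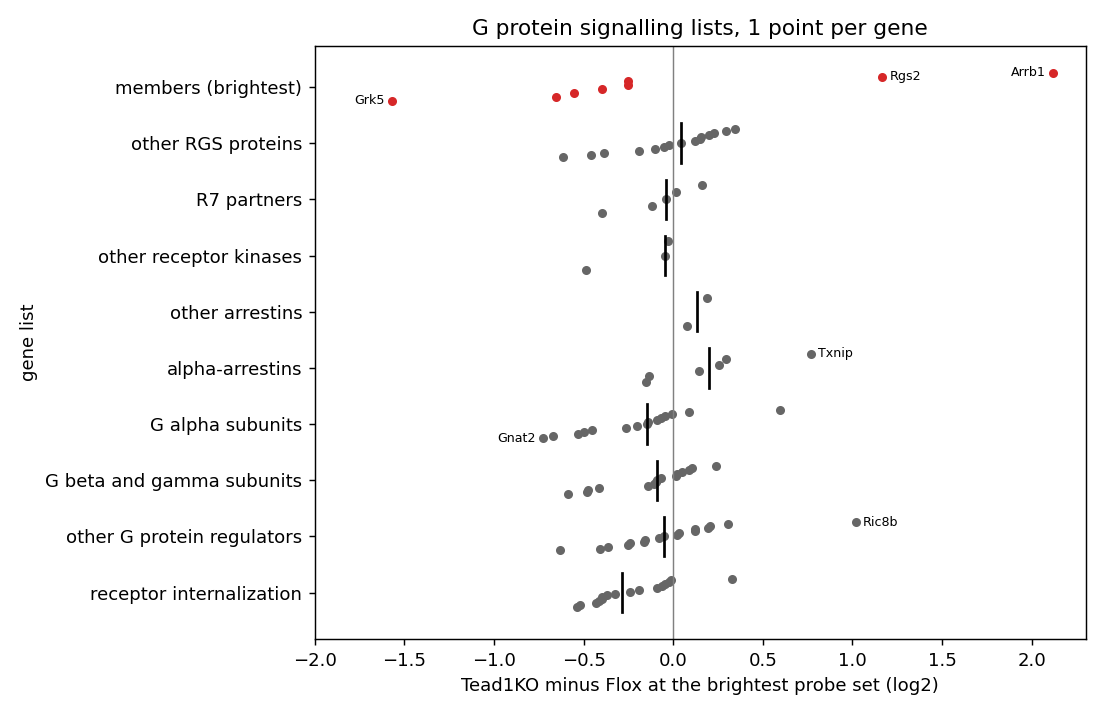
Tead1KO minus Flox at the brightest probe set (log2, x axis) for the members (red) and for the genes of 9 related lists (grey), 1 point per gene, with a black bar at the median of each of the 9 lists. Arrb1, Rgs2 and Grk5 lie at 2.12, 1.17 and -1.57, and of the grey points Ric8b is the farthest from 0, at 1.02.

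Array patterns were compared with 14290 other genes whose mean over the 6 arrays was above background, each gene centred on its mean. The gene nearest to Arrb1 was Crmp1, with a root mean square difference of 0.12 over the 6 arrays. Gpat3 (0.13) and Ptpn3 (0.19) followed, but all Flox arrays of Gpat3 (4.57, 3.97 and 4.33) read within background. For Rgs2 the nearest were Me3 (0.08), Sh3bgrl2 (0.14) and Ror1 (0.16). All Flox arrays of Sh3bgrl2 (4.48, 4.35 and 4.53) also read within background. For Grk5 the nearest were Phactr3 (0.10), 1500009L16Rik (0.13) and Itpr2 (0.14), and each of these was also lowest in Tead1KO replicate 3. For Rgs4 they were R3hdm1 (0.06), C1galt1 (0.06) and Pdp1 (0.06), and for Arrb2 Mrps12 (0.03), Saraf (0.03) and Xpo6 (0.04). With 6 arrays in 2 groups, this measure ranks first the genes whose group difference is of like size.

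Markers of the islet and of other cell types were read beside these results. The hormones Gcg, Sst and Ppy differed by 0.002, -0.01 and 0.07, and by -0.001, 0.04 and 0.22 without Tead1KO replicate 3. The other alpha and delta cell markers measured, Irx2, Irx1 and Hhex, differed by 0.31, -0.01 and -0.14, with overlapping arrays. Without Tead1KO replicate 3 these were 0.15, 0.17 and -0.04. Of 7 measured beta cell markers, 0 passed, and the arrays did not overlap in 4, beside 13.1% of all genes. These were Ucn3 (-0.95), Nkx6-1 (-0.95), Slc2a2 (-0.82) and Pdx1 (-0.66, or -0.43 without Tead1KO replicate 3), all lower in Tead1KO. The arrays of Ins2 (-0.005), Iapp (0.03) and G6pc2 (-0.13) overlapped. Without Tead1KO replicate 3 the differences of Ins2, Iapp and G6pc2 were -0.01, 0.11 and -0.01. The median of the list was -0.66 (-0.43 without that array). The summed signal of the 7 ranged from 16.93 to 16.97 in Flox and from 16.74 to 16.95 in Tead1KO. In this sum and those of the next paragraph linear values were added, so the brightest genes weigh most. Here these were Ins2 (15.69 in Flox) and Iapp (15.24), so the sum says little of the dimmer markers. None of these markers was within background.

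Of 9 pericyte markers 0 passed, and their summed signal was 10.01 to 10.28 in Flox and 9.89 to 9.93 in Tead1KO. In 5 of them the arrays did not overlap, beside 13.1% of all genes. Of these, Myh11 (-0.86), Acta2 (-0.99) and Tagln (-0.28) were lower and Kcnj8 (0.62) and Abcc9 (0.42) higher. The arrays of the other pericyte markers overlapped. Of 6 fibroblast markers 0 passed, and all 6 lay above 0, or 5 without Tead1KO replicate 3. Their sums were 10.45 to 10.82 in Flox and 10.70 to 11.40 in Tead1KO. The arrays of Dcn (1.11) and Col1a2 (0.62) did not overlap, which is 33.3%, beside 13.1% of all genes. The sums of 8 endothelial markers were 12.44 to 12.47 and 12.47 to 12.50. Those of 9 immune markers were 10.79 to 11.08 and 10.41 to 11.42, and those of 6 acinar markers 14.75 to 16.77 and 14.80 to 16.64. Acinar signal thus differed by array, and each of the 6 acinar markers was lowest in replicate 1 of both groups. Cpa1, for example, read 11.92, 13.93 and 14.33 in Flox and 12.04, 14.09 and 13.34 in Tead1KO. The 4 duct markers summed to 12.11 to 12.33 in Flox and 11.90 to 12.27 in Tead1KO, with Cftr within background. Krt7, the brightest at 12.21 in Flox, weighs most in that sum. The arrays of Sox9 (-0.19) did not overlap, which is 25% of the duct markers. Those of Krt19 did (-0.46, or -0.20 without Tead1KO replicate 3). Of the immune markers only Adgre1 (0.15) did not overlap, which is 11.1%. The 3 Schwann cell markers summed to 7.44 to 7.69 and 7.45 to 8.18. The part of any cell type in the values of Arrb1, Rgs2 and Grk5 was not tested.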

How the data were processed

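Values were log2 probe set signals, deposited by the authors. The submitters' processing notes name Affymetrix Expression Console. Which version, background correction, normalization or summarisation was used is not stated there. Of 45101 probe sets, 64 controls were left out of the tests, and 34945 of the others carried 1 gene symbol. No filter or pseudocount was applied. Tead1KO and Flox were compared per probe set with limma 3.58.1 in R 4.3.3 (lmFit, eBayes with a trend, no covariate) over 45037 probe sets. A call is a Benjamini-Hochberg adjusted p under 0.05. SE is the moderated standard error. Background is the range of unspiked bacterial controls. The members and lists were chosen with earlier results of these data known. Named genes are all members, up to 3 genes per list with the smallest unadjusted p, the 3 genes nearest to each member whose groups do not overlap, and markers. With 3 arrays per group, their number limits the precision. The fit was tested on simulated data.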

Additional observations from a re-analysis of the deposited data

How the results depend on the processing

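The count of called probe sets, 81, became 143 with quantile normalization, 42 with median centring and 268 with the covariate of hybridization controls, and ranged from 4 to 239 when 1 array was left out. The 2 member calls became 1 with median centring, without a variance trend, with a robust prior or without the less specific probe sets (_x_at, _s_at), and 4 with the control covariate. They ranged from 0 to 3 when 1 array was left out. The 0 related genes became 1 after quantile normalization or with the control covariate, and ranged from 0 to 1 when 1 array was left out; the gene was Ric8b. At the brightest probe set, the differences of Arrb1, Arrb2, Rgs2, Rgs4, Rgs16 and Grk5 kept their sign in every alternative run, that of Rgs7 in 14 of 15 and that of Grk6 in 12 of 14. Replicate numbers were not shown to pair the samples: deviations of same-numbered arrays correlated at 0.06, 0.35 and -0.20. With the replicate block, 96 probe sets passed, 2 of them members.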
